A study of Homo sapiens with 4 samples.

Results

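The barcodes with the most unique molecular identifiers (UMIs) were taken from single-cell libraries of BEAS-2B cells with and without irradiation. In each of the 4 libraries the median total UMI count was computed over the barcodes with at least 5000 UMIs, and the members are the barcodes with more than 2 times that median. There were 1975 of them among 68085 deposited barcodes. They were set beside the 37901 barcodes at 0.5 to 1.5 times the median of their own library, called mid-range barcodes here. BEAS-2B cells are immortalized and come from human bronchial epithelium. The groups were unirradiated control cells and cells exposed to 10 mGy, 100 mGy or 1 Gy of gamma rays from Cs-137 and kept in culture for 30 min afterwards, and all libraries were made by droplet-based capture of mRNA 3′ ends. There was 1 library per dose and no replicate, so that dose and library cannot be told apart, and no test between doses was made.

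In droplet libraries every cell is marked by its barcode and every captured mRNA molecule by its UMI, so the total per barcode reflects how much mRNA was captured. Cycling cells approach mitosis with a doubled genome and more RNA than cells that have just divided. Genes for DNA replication peak as S phase begins, genes for histones during S phase, and genes for the spindle and the anaphase-promoting complex at the end of G2 and in mitosis. A barcode can also hold more than 1 cell. No doublet caller was run and all barcodes were kept, so whether a member held 1 cell or more was not tested.

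The members were chosen on the sum of the same UMIs from which every value below was computed. All differences between members and mid-range barcodes are therefore descriptions and carry no p-value. Intervals are exact 95% intervals, cover counting error only, and do not cover variation between cultures or library preparations. Those of CPM and of ratios treat pooled UMIs as independent counts. They do not cover variation between the barcodes of a class either, and are too narrow for it. Pooled values are counts per 1000000 UMIs (CPM), summed over the barcodes of a class in a library, and a ratio is the CPM of the members over that of the mid-range barcodes.

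The control held 268 members, the library of 10 mGy 467, that of 100 mGy 820 and that of 1 Gy 420. As a share of barcodes with at least 5000 UMIs, this was 2.96% (2.62 to 3.33) in the control, 3.72% (3.39 to 4.06) after 10 mGy, 5.75% (5.37 to 6.14) after 100 mGy and 3.64% (3.31 to 4) after 1 Gy. The share was highest at 100 mGy, where the counting interval did not overlap that of any other library. It was lowest in the control, whose interval overlapped that of 1 Gy, and the intervals of 10 mGy and 1 Gy overlapped too. The libraries differed in other ways too, some of which moved with this order. Barcodes with at least 5000 UMIs numbered 9060 in the control, 11530 at 1 Gy, 12561 at 10 mGy and 14271 at 100 mGy, which is the order of the shares. The median UMI count was 21657 in the control, 19947 after 10 mGy, 15214 after 100 mGy and 16447.5 after 1 Gy, which does not follow that order in full. The upper quartile was 1.56, 1.59, 1.71 and 1.59 times the lower one, in the order of doses, so the library of 100 mGy also had the broadest distribution. The part of the number of barcodes, of the depth and of the dose in these shares was not tested.

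**Figure D1:**
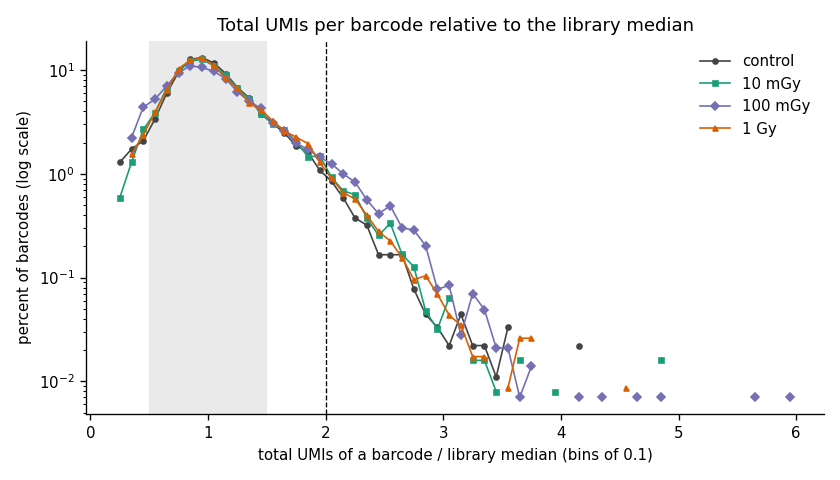
Percent of barcodes with at least 5000 UMIs (vertical axis, log scale) against total UMIs divided by the library median (horizontal axis, bins of 0.1), with 1 line per library. The grey band marks the mid-range barcodes and the dashed line the limit of 2 times the median. The curve falls without a clear second peak beyond the limit, and that of 100 mGy lies above the others there, with 5.75% of its barcodes past the line.

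The members were the upper end of a continuous distribution and formed no separate peak. The highest barcode reached 4.16 times the median in the control, 4.89 times after 10 mGy, 5.98 times after 100 mGy and 4.51 times after 1 Gy. Above 3 times the median there were 16, 18, 48 and 21 barcodes, in the order of doses. Barcodes just outside the limit, at 1.9 to 2 times the median, numbered 98 in the control, 187 after 10 mGy, 206 after 100 mGy and 149 after 1 Gy. Those just inside, at 2 to 2.1 times, numbered 77, 116, 178 and 104. In the control the former had a median of 7442 detected genes and 5.95% mitochondrially encoded UMIs, and the latter had 7591 genes and 5.88%. At 100 mGy the values were 5772 genes and 4.24% outside, and 5860 genes and 4.19% inside.

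The median member had 47808.5 UMIs in the control, 44618 after 10 mGy, 34641.5 after 100 mGy and 36826 after 1 Gy. Mid-range barcodes had 20980, 19146, 14458.5 and 15751. Together the members held 6.35% of all UMIs in the control, 7.57% after 10 mGy, 12.2% after 100 mGy and 7.65% after 1 Gy. A member had a median of 7807 detected genes in the control, 6982 after 10 mGy, 6070 after 100 mGy and 7150 after 1 Gy, and a mid-range barcode 5593, 4866, 4063 and 4905. This gap went away at equal depth. When every barcode was thinned at random to 7000 UMIs, which left out no member and no mid-range barcode, the members had a median of 3054.5, 2717, 2596.5 and 3064 genes. The mid-range barcodes had 3057, 2750, 2662 and 3084. Each barcode is specific within a library, but 28 of the 1975 members carried a barcode sequence that was also present in another library, and 0 were members in more than 1 library.

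The line's own markers were at like levels in members and mid-range barcodes. Among epithelial markers, the keratin genes KRT7, KRT8 and KRT18 had 485.7 to 620.1, 222.4 to 255.9 and 204.3 to 326.6 CPM over the 4 sets of members. The mesenchymal marker VIM (vimentin) had 2193.3 to 2661.1 CPM. The epithelial adhesion genes EPCAM and CDH1 were near 0, with 0.924 to 1.24 and 0 to 0.0462 CPM in the members and 0.934 to 1.28 and 0.0124 to 0.0555 CPM in the mid-range barcodes. The sum of 12 epithelial markers had a ratio of 0.94 in the control, 0.95 after 10 mGy, 1.01 after 100 mGy and 0.90 after 1 Gy, and that of 9 mesenchymal markers 0.95, 0.98, 0.96 and 0.90. Markers of other cells were close to 0. The 8 leukocyte markers summed to 9.47 to 13.2 CPM in the members, mostly from CD68, with 0 UMIs of CD3E and 1 of PTPRC. Endothelial, erythroid, and ciliated, club and alveolar markers summed to at most 0.601, 0.134 and 1.3 CPM.

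After scaling, few genes differed between members and mid-range barcodes. A gene was tested if it had at least 50 CPM in mid-range barcodes, as the mean over libraries, which 3526 genes did, and was called if its ratio was at least 1.2 or at most 1/1.2 in 4 of 4 libraries. By this rule 6 genes (0.17%) were higher and 29 (0.822%) lower in the members. These percentages are the background of every count of called genes below, and since the rule for members used the same UMIs, nothing about chance can be read from them. In single libraries 23 genes were at least 1.2-fold higher in the control, 35 after 10 mGy, 38 after 100 mGy and 34 after 1 Gy, and 62, 193, 326 and 129 were lower. The median log2 ratio over all tested genes was -0.002, -0.025, -0.056 and -0.017, in the order of doses. Before scaling, a member had 2.36, 2.38, 2.46 and 2.40 times as many UMIs as a mid-range barcode in the same order. With one library left out at a time, the number of higher genes went up from 6 to 11 without the library of 100 mGy, and the number of lower genes from 29 to 52 without the control.

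The 6 higher genes were ARL6IP1, PLK1, UBE2C, CEP164, CCNF and UBE2S, most of which act in G2 and mitosis. PLK1 (ENSG00000166851) encodes a kinase that drives entry into mitosis and spindle assembly. Its level in the members was 110.9 CPM in the control, 81.6 after 10 mGy, 92.8 after 100 mGy and 130.0 after 1 Gy, against 86.8, 62.7, 73.4 and 103.6 in mid-range barcodes. The log2 ratio was 0.35, 0.38, 0.34 and 0.33. It was thus nearly the same in every library, although the levels were lower at the 2 low doses in both classes.

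UBE2C (ENSG00000175063) and UBE2S (ENSG00000108106) encode the ubiquitin-conjugating enzymes that work with the anaphase-promoting complex. For UBE2C the members had 304.3, 476.7, 538.0 and 347.2 CPM, in the order of doses, against 241.1, 375.5, 437.6 and 268.5 in mid-range barcodes. Its ratio was 1.26, 1.27, 1.23 and 1.29. For UBE2S the members had 731.4, 744.7, 841.5 and 739.1 CPM against 607.4, 597.3, 654.0 and 599.3. Here the log2 ratio was 0.27 in the control, close to the limit of the rule, and 0.32, 0.36 and 0.30 at the doses. Both enzymes were therefore higher in the members of all 4 libraries by about the same factor.

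ARL6IP1 (ENSG00000170540), a membrane protein that shapes the endoplasmic reticulum, had the largest single ratio of the 6, in the control. The members had 310.8 CPM in the control, 355.3 after 10 mGy, 380.2 after 100 mGy and 343.4 after 1 Gy, and mid-range barcodes 218.5, 282.1, 299.2 and 255.5. The ratio was 1.42 (1.38 to 1.47) in the control, 1.26 and 1.27 at the low doses and 1.34 at 1 Gy. CCNF (ENSG00000162063) encodes cyclin F, the substrate-binding part of a ubiquitin ligase active in G2. It had 81.5, 42.8, 50.2 and 88.0 CPM in the members against 61.5, 31.9, 41.5 and 66.0. CEP164 (ENSG00000110274), a protein of the centriole's distal appendages, had 61.2, 56.9, 65.1 and 67.0 CPM against 48.6, 44.8, 53.2 and 54.3, with ratios of 1.26, 1.27, 1.22 and 1.23. Both CCNF and CEP164 were close to the floor of 50 CPM in mid-range barcodes.

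The rule itself fixed that these 6 genes were higher in every library. To show their promoters, the 250 bases before their start sites were read from the RefSeq promoter table (GRCh38.p14). Of the 6 genes, 5 had 6 entries there in all, with 2 for ARL6IP1, and UBE2C had none. A pair of motifs was searched on both strands, CCAAT (or ATTGG), the CCAAT box, and TTTGAA (or TTCAAA), the core of the cell cycle genes homology region. CCAAT was found in 5 of the 6 entries and in 32% of the 35116 entries of the table, and TTTGAA in 2 of the 6 and in 13.3% of all entries. CCNF and PLK1 held both. Their windows are shown 5′ to 3′, with both motifs in capitals, from chr16:2429197-2429446 and chr16:23678639-23678888 on the plus strand.
CCNF: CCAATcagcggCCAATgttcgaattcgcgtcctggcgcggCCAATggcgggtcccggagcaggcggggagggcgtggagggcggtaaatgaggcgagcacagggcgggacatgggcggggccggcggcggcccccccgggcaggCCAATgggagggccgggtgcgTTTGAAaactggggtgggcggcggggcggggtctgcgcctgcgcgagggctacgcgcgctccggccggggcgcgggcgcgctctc
PLK1: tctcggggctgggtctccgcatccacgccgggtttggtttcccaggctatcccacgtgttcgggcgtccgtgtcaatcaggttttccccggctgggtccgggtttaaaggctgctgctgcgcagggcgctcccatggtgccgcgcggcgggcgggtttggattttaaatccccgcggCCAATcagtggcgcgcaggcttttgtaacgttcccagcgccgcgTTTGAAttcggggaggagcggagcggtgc
The CCNF window held CCAAT 4 times and TTTGAA 1 time, and the PLK1 window held each 1 time. A match describes the letters of the window and not the binding of a factor.

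Of the 29 lower genes, 6 were replication-dependent histone genes, which supply histones for newly made DNA and are transcribed in S phase. HIST2H2AC (ENSG00000184260) had 154.2 CPM in the members of the control, 98.1 after 10 mGy, 94.8 after 100 mGy and 96.8 after 1 Gy. Mid-range barcodes had 292.4, 150.8, 174.4 and 197.9, so the ratio was 0.53 (0.5 to 0.55), 0.65 (0.62 to 0.68), 0.54 (0.52 to 0.57) and 0.49 (0.46 to 0.51). Every library was at or below 0.65, and per barcode the gene had only 1.18 to 1.55 times as many UMIs in members although the total was more than 2 times as high. HIST1H3D, which encodes histone H3, had ratios of 0.54, 0.63, 0.56 and 0.50. The linker histone genes HIST1H1D and HIST1H1C had 0.59, 0.66, 0.61 and 0.55, and 0.66, 0.75, 0.68 and 0.62. HIST1H3B and HIST1H2AH made up the 6, with ratios between 0.61 and 0.74.

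The 3 tested histone genes that were not called include the most abundant one. HIST1H4C, which encodes histone H4, had 1508.6 CPM in the members of the control, 2278.2 after 10 mGy, 3260.5 after 100 mGy and 1444.7 after 1 Gy, against 1550.7, 1837.9, 2779.5 and 1538.2. Its ratio was 0.97 and 0.94 in the control and at 1 Gy, and 1.24 and 1.17 at 10 mGy and 100 mGy. For HIST1H1B it was 0.65 and 0.59, and 1.01 and 0.87. The sum of the 23 histone genes, HIST1H4C included, had ratios of 0.77 in the control, 1.06 after 10 mGy, 1.03 after 100 mGy and 0.76 after 1 Gy. The median log2 ratio over the 9 tested genes was below 0 in every library, at -0.69, -0.44, -0.61 and -0.76, so sum and median differed in sign at both low doses. Most mRNAs of these genes end in a stem-loop and not in a poly(A) tail, so a capture on poly(A) sees only part of them.

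Of the G1/S and S phase list, 3 of 27 tested genes were called lower. PCNA (ENSG00000132646), the sliding clamp of the replication fork, had 148.5 CPM in the members of the control, 186.2 after 10 mGy, 153.5 after 100 mGy and 126.6 after 1 Gy. Mid-range barcodes had 185.9, 255.6, 189.1 and 179.7, and the ratio was 0.80, 0.73, 0.81 and 0.70. FAM111B, which is in none of the lists, had ratios of 0.67, 0.59, 0.61 and 0.65. BRIP1, a helicase of DNA repair, had 0.83, 0.74, 0.68 and 0.76. CCNE2, encoding cyclin E2 of the G1/S transition, had ratios of 0.75, 0.63, 0.56 and 0.77, but was below the floor of 50 CPM and was not tested. Of the 27 tested genes of the list, 23 were below 1 in all 4 libraries, as were 33.9% of all tested genes. Among genes that were not called, NASP had 0.85, 0.78, 0.77 and 0.78, and MCM4 of the early S core list 0.84, 0.83, 0.78 and 0.80. Some replication genes were near 1. RRM2, a subunit of ribonucleotide reductase, had 1.01, 0.98, 0.95 and 1.02. CLSPN, which encodes the checkpoint mediator claspin, had 0.98, 0.99, 0.97 and 1.03.

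Other lower genes came from several functions. HSPA5, the main chaperone of the endoplasmic reticulum, had ratios of 0.80, 0.79, 0.72 and 0.78, and SRP54, part of the signal recognition particle, 0.81, 0.75, 0.74 and 0.79. CYP51A1, an enzyme of sterol synthesis, had 0.82, 0.81, 0.74 and 0.77. The collagen genes COL12A1 and COL4A1 were between 0.75 and 0.83. RNA processing was represented by the helicase gene DDX5, the spliceosome genes PRPF8 and PRPF3 and the exosome gene EXOSC9, with ratios between 0.73 and 0.83. Surface and signalling genes were CD46, a regulator of complement, F3, tissue factor, and PLCG2, a phospholipase, with ratios between 0.68 and 0.80. ACSL4, which activates long-chain fatty acids, had 0.80, 0.76, 0.74 and 0.77, and PYGL, a glycogen phosphorylase, 0.82, 0.81, 0.83 and 0.76. AC008522.1, known only by its clone name, had the lowest ratio of all 29 in one library, 0.40 at 100 mGy.

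**Figure D2:**
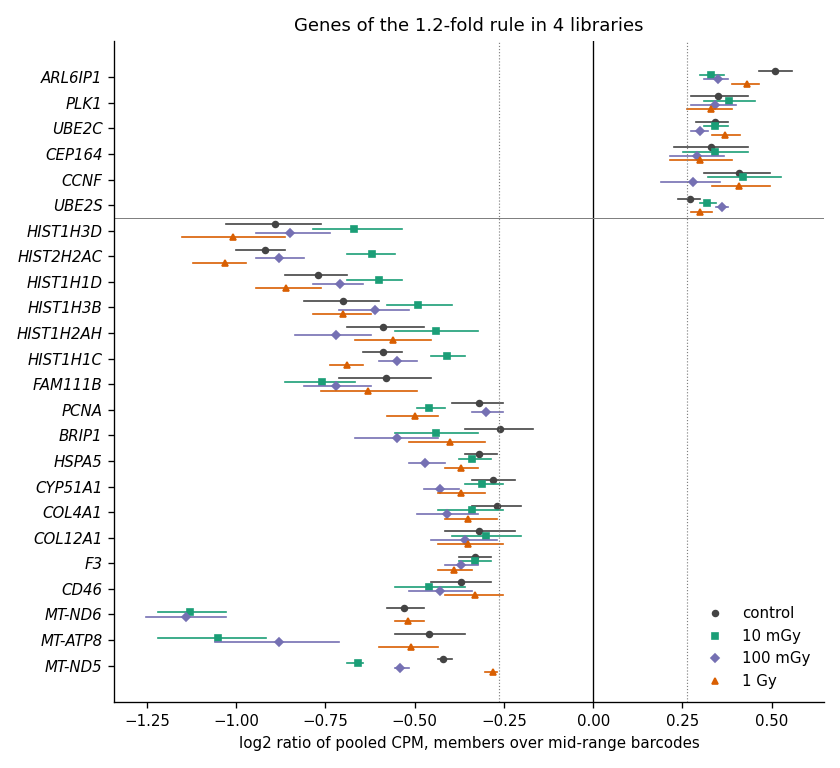
Log2 ratio of pooled CPM, members over mid-range barcodes (horizontal axis), for the 6 higher genes (above the grey line) and 18 of the 29 lower ones. Each symbol is 1 library, bars are exact 95% counting intervals, and dotted lines mark a 1.2-fold difference. All symbols lie on one side for each gene, and MT-ND6 and MT-ATP8 are split between the 2 low doses and the other libraries.

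The lists of cell cycle genes gave the same picture with small shifts. The 18 genes of the early S core list, such as MCM helicase subunits and PCNA, summed to 1332.4 CPM in the members of the control, 1190.0 after 10 mGy, 1070.8 after 100 mGy and 1304.7 after 1 Gy. Mid-range barcodes had 1513.4, 1426.7, 1249.9 and 1541.3, which gave ratios of 0.88, 0.83, 0.86 and 0.85. Of its 11 tested genes, 1 was called lower, 0 higher, and 9 were below 1 in all 4 libraries, as were 33.9% of all tested genes. The longer G1/S and S phase list had ratios of 0.91, 0.86, 0.87 and 0.87, with 0 of its tested genes called higher.

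The mitotic core list of 20 genes went the other way in its sum. It summed to 3497.7, 2618.6, 2889.1 and 3551.7 CPM in the members and 3023.7, 2383.0, 2757.9 and 3131.4 in mid-range barcodes, with ratios of 1.16, 1.10, 1.05 and 1.13. Of its 13 tested genes, 2 were called higher, PLK1 and UBE2C, and 0 lower. Above 1 in all 4 libraries were 6 of the 13, as were 21.6% of all tested genes. At 100 mGy only 7 of the 13 were above 1, with a median log2 ratio of 0.01. UBE2C alone had 538.0 CPM in the members there, against 437.6. The G2/M list had ratios of 1.09, 1.06, 1.02 and 1.08, with 2 of 47 called higher and 0 lower, and the cytokinesis list 1.03, 1.01, 0.96 and 1.04. At 100 mGy 22 of the 47 tested G2/M genes were above 1, with a median log2 ratio of -0.01. Single genes of late G2 differed in size. TOP2A, the topoisomerase that untangles chromosomes, had ratios of 1.32, 1.16, 1.03 and 1.28, and CENPF, a kinetochore protein, 1.24, 1.09, 0.97 and 1.27. CCNB1, the mitotic cyclin B1, had 1.09, 1.03, 1.04 and 0.99, and MKI67, the proliferation marker Ki-67, 1.08, 1.06, 0.97 and 1.10. These 4 genes had smaller ratios at 100 mGy than in the control.

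Across bins of total UMIs, the mitotic core list did not climb to the top. In the control its sum was 2583.4 CPM at 0.75 to 1 times the median, 3927.5 in the bin that ends at 1.5 times, 3590.0 at 2 to 2.5 times, 3040.9 at 2.5 to 3 times and 3717.5 above 3 times. At 10 mGy the values were 2028.9, 3044.1, 2649.1, 2564.1 and 2437.9, and at 100 mGy 2340.4, 3467.9, 2912.0, 2905.2 and 2664.6. At 1 Gy they were 2569.3, 3951.9, 3543.9, 3519.8 and 3720.5. In all 4 libraries the highest bin was the one that ends at 1.5 times the median, inside the mid-range, and the members were between it and the bins below the median. The early S core list was highest at 0.75 to 1 times the median in every library, with 1651.8, 1537.5, 1386.1 and 1691.8 CPM, and stood at 1313.3, 1210.1, 1092.3 and 1317.0 CPM at 2 to 2.5 times.

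**Figure D3:**
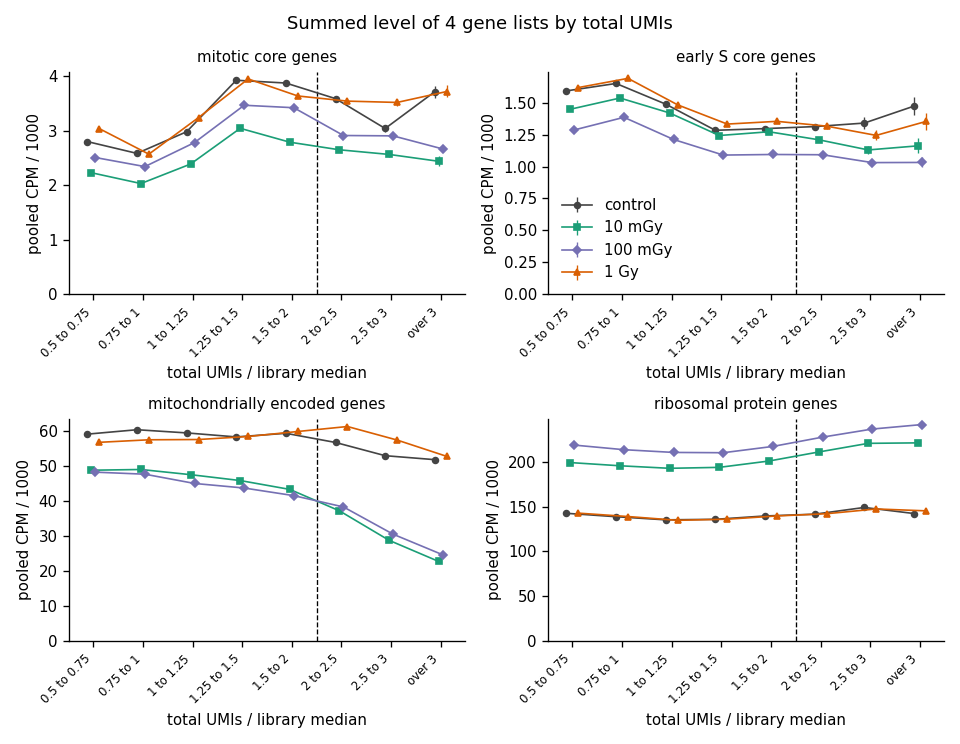
Pooled CPM divided by 1000 (vertical axes, from 0) of 4 gene lists in bins of total UMIs relative to the library median (horizontal axes), with 1 line per library and exact 95% counting intervals. The dashed line separates the members on the right. The mitotic core list is highest in the bin that ends at 1.5 times the median, and mitochondrially encoded genes drop more among the members of 10 mGy and 100 mGy than among those of the control and 1 Gy.

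Mixed cell cycle states were looked for at an equal depth of 7000 UMIs. A barcode counted as mixed when it exceeded the 75th percentile of the mid-range barcodes of its library in the early S core and the mitotic core list at once. This held for 2 of 268 members in the control (0.746%, 0.0905 to 2.67), 5 of 467 after 10 mGy (1.07%, 0.349 to 2.48), 9 of 820 after 100 mGy (1.1%, 0.503 to 2.07) and 2 of 420 after 1 Gy (0.476%, 0.0577 to 1.71). In mid-range barcodes the shares were 0.445%, 0.609%, 0.575% and 0.513%, and all of them were within the intervals of the members. With 2 to 9 such barcodes per library a difference was not detectable at this setting. When barcodes were thinned to 5000 UMIs instead, the members were at 3% (1.65 to 4.98) at 10 mGy and 2.14% (0.984 to 4.03) at 1 Gy, above the mid-range shares of 1.18% and 0.599%. In the control and after 100 mGy they were then at 1.49% (0.408 to 3.78) and 1.46% (0.758 to 2.54), against mid-range shares of 0.499% and 1.09%, both within the intervals. With the longer G1/S and S phase and G2/M lists at 7000 UMIs, the members were at 1.9% (0.826 to 3.72) at 1 Gy, above the mid-range share of 0.749%, and the mid-range shares of the other libraries were within the intervals of their members. Among barcodes over 2.5 times the median the share was 2.07% (0.674 to 4.76) at 100 mGy, above the mid-range 0.575%. Of the single lists, the mitotic one was exceeded by 42.2%, 38.1%, 31.7% and 37.1% of the members, against 23.9%, 23.7%, 24.3% and 24.8% of mid-range barcodes. The early S one was exceeded by 9.7%, 8.99%, 10.5% and 7.38% of members against 20.4%, 22%, 19.5% and 22.1%. Spearman's rho between both list sums was -0.46, -0.35, -0.29 and -0.39 over the members, and -0.53, -0.47, -0.50 and -0.55 over mid-range barcodes of the same libraries, so rho was closer to 0 in the members of every library. For the histone and mitotic core lists rho was further from 0, at -0.46, -0.34, -0.48 and -0.36 over the members against -0.17, 0.07, -0.10 and -0.22. Of the members 0.373%, 3%, 0.732% and 0% (the last with an exact upper limit of 0.874%) were above the 75th percentile in both, against 0.89%, 3.51%, 1.79% and 0.684%. Only at 100 mGy was the mid-range share outside the interval of the members (0.269 to 1.59). These are descriptions over thinned barcodes that share a library and a depth.

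Most genes varied less among the members than among mid-range barcodes, but some gene lists varied more. Excess dispersion was taken as the variance minus the mean, over the squared mean, at 7000 UMIs per barcode, so that pure counting noise gives 0. Of the 1794 genes with at least 100 CPM, 396 (22.1%) had a lower excess dispersion in members than in mid-range barcodes in all 4 libraries, and 87 a higher one in all 4. In single libraries 62.1%, 63%, 61.8% and 63.4% of the genes were lower. The median over genes was 0.0301 in the members of the control, 0.0281 after 10 mGy, 0.0405 after 100 mGy and 0.0292 after 1 Gy, against 0.0375, 0.0393, 0.0477 and 0.0372. The members are fewer than the mid-range barcodes, so their values carry more sampling error. The summed mitochondrially encoded genes went the other way in every library, with an excess dispersion of 0.0529, 0.139, 0.116 and 0.0494 in members against 0.0379, 0.0472, 0.0574 and 0.0323. For the heat shock list it was 0.0206, 0.0243, 0.0272 and 0.0219 against 0.0178, 0.0216, 0.0259 and 0.0199. These differences were small and no interval was computed, so whether they exceed sampling error was not tested. Nuclear retained RNAs were more variable among members after 10 mGy and 100 mGy, at 0.216 and 0.362 against 0.166 and 0.234, and less variable in the control and after 1 Gy, at 0.0965 and 0.0953 against 0.137 and 0.136.

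Among the 20 genes of highest excess dispersion in mid-range barcodes, picked on those values, the members were lower for 20, 20, 20 and 19 genes, in the order of doses. Picking genes for high mid-range values favours a lower value in members, so these genes are a description only. The exception was HIST2H2AC at 1 Gy, with 0.419 in members and 0.39 in mid-range barcodes. The median ratio was 0.42, 0.44, 0.46 and 0.45. G0S2, an inhibitor of triglyceride breakdown, had the highest values, with 0.484, 0.562, 1.05 and 0.574 in members against 1.69, 1.85, 2.63 and 1.65. Its pooled level was nearly equal in both classes, at 285.3, 177.1, 145.1 and 229.3 CPM against 275.0, 175.2, 150.2 and 224.1. The mitotic kinase gene AURKA had 0.451, 0.457, 0.518 and 0.418 against 1.07, 1.01, 1.06 and 0.896, and CCNB1 0.465, 0.488, 0.447 and 0.418 against 0.935, 0.865, 0.885 and 0.821. HMOX1, the heme oxygenase induced by oxidative stress, had 0.375, 0.332, 0.479 and 0.418 against 0.847, 0.826, 1.09 and 0.792.

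**Figure D4:**
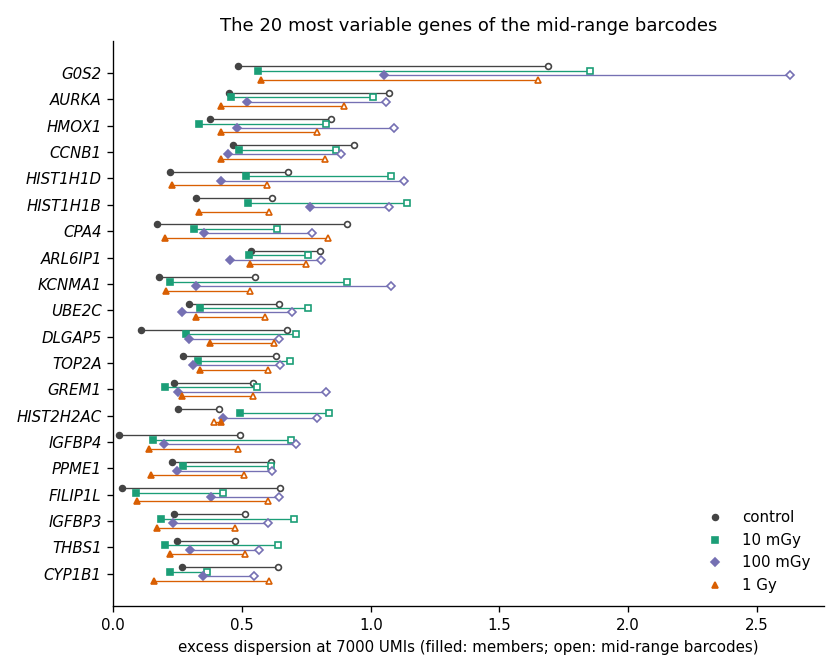
Excess dispersion at 7000 UMIs per barcode (horizontal axis, from 0) of the 20 most variable genes of the mid-range barcodes, with filled symbols for members and open symbols for mid-range barcodes, 1 colour per library and a line between both. Filled symbols lie left of open ones for 19 of the 20 genes in all 4 libraries, and for HIST2H2AC at 1 Gy the order is the opposite, with 0.419 and 0.39.

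The tails of the list sums went different ways. For the mitotic core list at equal depth, 2.99%, 4.28%, 3.05% and 2.62% of members were below the 10th percentile of the mid-range barcodes, where 8.02%, 6.7%, 8.1% and 9.92% of the latter were, a gap beyond counting error in all 4 libraries. Above the 90th percentile there were 7.46%, 9.64%, 5.98% and 6.9% of members against 9.87%, 9.52%, 9.44% and 9.45%, and only at 100 mGy was the difference beyond counting error (4.45 to 7.82). For matricellular and TGF-beta response genes, 2.99%, 2.57%, 2.68% and 2.38% of members were in the upper tail against 9.8%, 8.91%, 9.47% and 9.39%. For heat shock genes the members were moved downward, with 20.9%, 24%, 21.3% and 20.7% below the 10th percentile and 5.22%, 2.57%, 2.56% and 3.33% above the 90th. Other tails were heavier. Mitochondrially encoded genes placed 16.4%, 43.7%, 37.3% and 10.7% of members below the 10th percentile and 7.09%, 0.214%, 1.71% and 21.7% above the 90th. Ribosomal protein genes placed 16.8%, 34%, 32.1% and 16.9% above the 90th percentile and 6.72%, 1.93%, 3.9% and 3.57% below the 10th.

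Mitochondrially encoded genes code for subunits of the respiratory chain, and in them the libraries were not alike. They took 5.73% of the UMIs of the median member in the control, 3.76% after 10 mGy, 3.72% after 100 mGy and 6.02% after 1 Gy, against 6%, 4.81%, 4.65% and 5.71% in mid-range barcodes. The pooled ratio of the 13 genes was 0.93 in the control, 0.72 after 10 mGy, 0.76 after 100 mGy and 1.04 after 1 Gy. It was lowest in the 2 libraries of low dose. Of the 13 genes, 3 were called lower. MT-ND6 had 229.8, 40.8, 25.5 and 329.4 CPM in the members and 330.7, 89.6, 56.1 and 471.4 in mid-range barcodes, and ratios of 0.69, 0.46, 0.45 and 0.70. MT-ND5 had ratios of 0.75, 0.63, 0.69 and 0.82, and MT-ATP8 of 0.73, 0.48, 0.54 and 0.70. MT-CO1 had 0.85, 0.68, 0.75 and 0.96 and was not called.

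Within the 2 libraries of low dose, the decrease grew with the UMI count. At 10 mGy the mitochondrially encoded genes had 48863.3 CPM at 0.5 to 0.75 times the median, 43362.6 at 1.5 to 2 times, 37216.3 at 2 to 2.5 times, 28768.2 at 2.5 to 3 times and 22706.1 above 3 times. At 100 mGy the values were 48308.2, 41576.2, 38336.4, 30528.4 and 24622.7. In the same bins the control had 59201.8, 59442.7, 56816.0, 53027.1 and 51886.9 CPM, the last over 16 barcodes. At 1 Gy the values were 56856.3, 59962.3, 61387.2, 57511.0 and 52834.3 CPM, so that the 324 members at 2 to 2.5 times were above the mid-range and the 21 barcodes above 3 times were below it. The spread among members was wide at the low doses, where the 10th and 90th percentiles of the mitochondrially encoded share were 1.3% and 5% after 10 mGy and 1.87% and 5.05% after 100 mGy. In the control they were 4.25% and 6.98%, and at 1 Gy 4.58% and 7.56%.

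A limit of 2% mitochondrially encoded UMIs, set after these values were seen, was used to count the lower tail. Below it were 75 of 467 members after 10 mGy (16.1%, 12.8 to 19.7) and 106 of 820 after 100 mGy (12.9%, 10.7 to 15.4), but 7 of 268 in the control (2.61%, 1.06 to 5.31) and 9 of 420 after 1 Gy (2.14%, 0.984 to 4.03). Of the mid-range barcodes, 108 of 10179, 171 of 10956, 93 of 7415 and 26 of 9351 were below it in these 4 libraries, or at most 1.56%. Above 3 times the median, 10 of 18 barcodes after 10 mGy and 21 of 48 after 100 mGy were below the limit, against 0 of 16 in the control and 1 of 21 after 1 Gy. The exact upper limits were 20.6% in the control and 23.8% after 1 Gy, over few barcodes. A low mitochondrially encoded share was thus common among the largest barcodes of both low-dose libraries and less common in the control and after 1 Gy. With 1 library per dose, this cannot be told apart from a difference between library preparations.

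**Figure D5:**
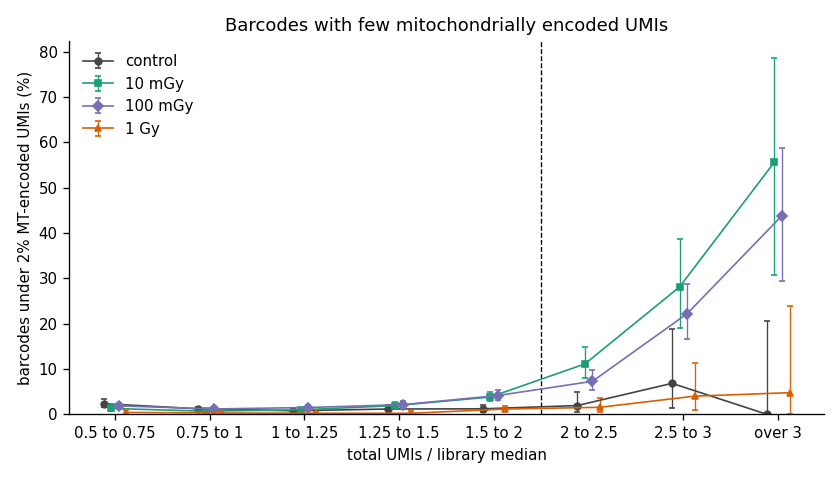
Percent of barcodes with under 2% mitochondrially encoded (MT-encoded) UMIs (vertical axis, from 0) in bins of total UMIs relative to the library median (horizontal axis), with 1 line per library and exact 95% binomial intervals. The dashed line separates the members on the right. The share reaches 55.6% at 10 mGy and 43.8% at 100 mGy above 3 times the median, where few barcodes make the intervals wide.

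These members also differed in genes that the limit did not use. At 10 mGy the nuclear long noncoding RNA MALAT1 had 4029.2 CPM in the 75 members below the limit and 7347.2 CPM in the other 392, a ratio of 0.55. At 100 mGy it had 2801.6 and 6312.1 CPM in 106 and 714 members, a ratio of 0.44. NEAT1, the RNA scaffold of nuclear paraspeckles, had ratios of 0.78 and 0.59. Both nuclear RNAs were thus lower where mitochondrially encoded RNAs were. Ribosomal protein genes went the other way, with 238026.9 against 208568.7 CPM at 10 mGy and 257420.4 against 226819.8 CPM at 100 mGy, ratios of 1.14 and 1.13. Metallothionein genes, which bind metal ions, had ratios of 1.24 and 1.2, and FTH1, the heavy chain of ferritin, 1.29 and 1.21. The mitotic core list was at 0.84 in both libraries, and the histone list at 1.10 and 1.14. The 7 members below the limit in the control and the 9 at 1 Gy were at 0.76 and 0.76 for MALAT1, 1.17 and 1.22 for ribosomal protein genes and 1.17 and 1.39 for metallothionein genes, on the same side of 1. For the mitotic core list they were at 1.18 (1.12 to 1.24) and 0.90. For the histone list they were at 0.81 (0.75 to 0.87) and 1.05. The control was thus on the other side of 1 from the low doses, but over only 7 barcodes. These intervals count UMIs and do not cover the spread between barcodes. Over all members of the control, at 7000 UMIs, the standard deviation was 50.9% of the mean for the mitotic core list and 57.9% for the histone list. Whether the 7 members differed in these lists was not tested. Members below the limit had a median of 49493 UMIs at 10 mGy and 39287.5 at 100 mGy, and the others 44143.5 and 34205.5. The number of detected genes was about the same, 7048 against 6964 for the library of 10 mGy and 6071.5 against 6070 for that of 100 mGy.

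Without the barcodes under 2%, in members and in mid-range barcodes, the low-dose ratios of the mitochondrially encoded and nuclear retained lists were less far from 1, and those of the mitotic core list further from it. The mitochondrially encoded list had ratios of 0.94 in the control, 0.82 after 10 mGy, 0.83 after 100 mGy and 1.06 after 1 Gy. For this list the low-dose change was fixed in advance, since the limit removed barcodes low in these same genes. It removed a larger share of the low-dose members than of mid-range barcodes. The nuclear retained list, with MALAT1 and NEAT1, moved from 1.12, 0.84, 0.77 and 1.06 to 1.13, 0.90, 0.83 and 1.06. The mitotic core list moved from 1.10 to 1.13 at 10 mGy and from 1.05 to 1.07 at 100 mGy. Of the called genes, the 6 higher ones were all kept among 7, and 22 of the 29 lower ones were kept.

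MALAT1 by itself had 14250.3 CPM in the members of the control, 6759.5 after 10 mGy, 5792.8 after 100 mGy and 12798.2 after 1 Gy, against 12397.0, 8167.5, 7803.1 and 11887.5 in mid-range barcodes. Its ratio was above 1 in the control and at 1 Gy (1.15 and 1.08) and below 1 at the low doses (0.83 and 0.74). Ribosomal protein genes had ratios of 1.04, 1.10, 1.09 and 1.04, with 0 of 82 tested genes called in either direction and 49 above 1 in all 4 libraries, as were 21.6% of all tested genes. Metallothionein genes had 1.02, 1.12, 1.09 and 1.09, and host genes of small nucleolar RNAs 1.07, 1.08, 1.04 and 1.09. Heat shock genes were at 0.92, 0.91, 0.89 and 0.89, with HSPA5 called lower among 13 tested, and collagen and laminin genes at 0.89, 0.88, 0.84 and 0.86, with 2 of 7 called lower. CDKN1A, the cell cycle inhibitor induced by p53, had ratios of 1.08, 1.14, 1.08 and 1.14, from 26.9 to 35.2 CPM in the members, and MDM2, which degrades p53, had 1.03, 0.98, 0.88 and 1.08.

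Each dose was also set against the control within each class. The 3 comparisons share the control, and members and mid-range barcodes of a dose share a library. Mitochondrially encoded genes were at 0.62, 0.63 and 1.08 of the control at 10 mGy, 100 mGy and 1 Gy in the members, and at 0.80, 0.77 and 0.97 in mid-range barcodes. Nuclear retained RNAs were at 0.52, 0.42 and 0.95 in members and at 0.69, 0.62 and 1.01 in mid-range barcodes. Both lists were further below the control in the members of the low doses. The sum of the histone list was at 1.08, 1.40 and 0.85 in members and 0.78, 1.04 and 0.86 in mid-range barcodes. At 10 mGy it was thus above the control in one class and below it in the other. This sum holds HIST1H4C, its most abundant gene, which was above the control at both low doses in both classes. The 6 called histone genes were below the control at both low doses in both classes. HIST2H2AC had 98.1 CPM after 10 mGy and 94.8 after 100 mGy in members, against 154.2 in the control. In mid-range barcodes it had 150.8 and 174.4 against 292.4. Ribosomal protein genes were at 1.49, 1.62 and 1.00 in members and 1.42, 1.55 and 1.00 in mid-range barcodes. For p53 target genes the values were 0.81, 0.75 and 0.94, and 0.78, 0.75 and 0.97.

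Of the 3526 tested genes, 2507 were at least 1.2-fold from the control after 10 mGy in the members, 2666 after 100 mGy and 142 after 1 Gy. In mid-range barcodes it was 2391, 2459 and 62, and 2298, 2395 and 42 genes passed 1.2-fold on the same side of the control in both classes. The ratio to the control differed by at least 1.2-fold between members and mid-range barcodes for 66 genes (1.87%) after 10 mGy, 203 (5.76%) after 100 mGy and 0 after 1 Gy. At 100 mGy it was lower in members for 164 of the 203.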

How the data were processed

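The files deposited by the authors hold the UMI count of 36601 genes in every barcode, for 4 libraries. Per the file headers these counts were made with Cell Ranger 7.0.1. The submitters' processing notes name GRCh37, with no role, and the annotation is not given in the sources used here, so no coordinates were taken from the files. Libraries held 211752280 to 285806026 UMIs.

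Members, mid-range barcodes and gene lists were chosen with earlier results of these data known. UMIs were summed per class and library and divided by the class total, and ratios have exact conditional Poisson intervals. Named genes were the 12 largest rises and 12 largest falls by the weakest library, up to 4 most abundant genes of each of 29 lists, and a few fixed genes. All called genes, genes of the dispersion plot and FTH1 were added after values were seen. Mitochondrially encoded and ribosomal protein genes were taken by symbol. The scripts were tested on simulated data. The alternatives were other thresholds, floors, scalings and depths, a count split and leaving out each library. Python 3.11.15, numpy 2.4.6, scipy 1.17.1 and pandas 2.3.3 were used. Some of the called genes are not reported by name here.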

Additional observations from a re-analysis of the deposited data

Results flagged for a closer look

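Of 31 gene lists, 9 were on opposite sides of 1 in different libraries, beyond counting error, when members were compared with mid-range barcodes. The difference between libraries itself was not tested, since there is 1 library per dose.

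Nuclear retained RNAs had a ratio of 1.12 in the control, 0.84 after 10 mGy, 0.77 after 100 mGy and 1.06 after 1 Gy. Mitochondrially encoded genes had 0.93, 0.72, 0.76 and 1.04 in the same order. Replication-dependent histones had 0.77, 1.06, 1.03 and 0.76, where HIST1H4C, the most abundant gene of the list, was at 0.97, 1.24, 1.17 and 0.94. In each of these 3 lists the 2 libraries of low dose were alike, and the control and 1 Gy were alike except for the mitochondrially encoded genes, which were slightly below 1 in the control and slightly above it at 1 Gy.

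The other 6 lists stayed between 0.90 and 1.04. Proteasome genes had ratios of 0.93 in the control, 0.96 after 10 mGy, 1.02 after 100 mGy and 0.90 after 1 Gy. Glycolysis genes had 0.96, 0.98, 1.01 and 0.95, and translation factors 0.99, 1.02, 1.03 and 0.98, in the order of doses. Cytokinesis genes had 1.03, 1.01, 0.96 and 1.04. Giant cytoskeletal and adhesion genes had 1.01, 1.01, 0.96 and 0.99. Genes of the ATF4 integrated stress response had 1.02, 0.98, 0.98 and 1.02.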

How the results depend on the processing

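With a limit of 2.5 times the median the share of members was 0.662% in the control, 0.852% after 10 mGy, 1.7% after 100 mGy and 0.833% after 1 Gy, and with 3 times it was 0.177%, 0.143%, 0.336% and 0.182%. With the median over barcodes of at least 2000 UMIs it was 3.39% in the control and 4.43% at 10 mGy, and with at least 8000 UMIs 5.11% at 100 mGy. The share at 100 mGy was the highest in each of these settings. The number of higher genes, 6, was 3 with a floor of 100 CPM, 0 with a 1.5-fold rule and 13 against a narrower range around the median. It ranged from 6 to 11 with a library left out. The number of lower genes, 29, was 79 with a floor of 10 CPM, 13 with a floor of 100 CPM, 4 with a 1.5-fold rule and 62 for barcodes over 2.5 times the median, and ranged from 32 to 52 with a library left out, which is a weaker rule since fewer libraries have to pass. When members were chosen on a random 50% of the UMIs and measured on the rest, 4 genes were higher and 28 lower, and 4 of the 6 and 25 of the 29 were kept. Leaving out barcodes under 2% mitochondrially encoded UMIs was added after the data were seen. With a floor of 50 CPM, 608 of 3526 genes had a lower excess dispersion. The share of mixed members was 0 in all 4 libraries at the 90th percentile. Over 2.5 times the median it was 3.33% in the control, 0 after 10 mGy, 2.07% after 100 mGy (mid-range 0.575%) and 0 after 1 Gy, and only 100 mGy was beyond counting error. Thinned to 5000 UMIs it was 3% after 10 mGy (mid-range 1.18%) and 2.14% at 1 Gy (mid-range 0.599%), both above the mid-range share by more than counting error, and with the G1/S and S phase and G2/M lists 2.44% after 100 mGy (mid-range 1.55%) and 1.9% after 1 Gy (mid-range 0.749%), where only 1 Gy was beyond counting error. The cause of these changes was not tested. Doses could not be compared over replicates because there is 1 library per dose. Members and mid-range barcodes were compared within each library. Depth limits the sums of rare markers, such as the endothelial and erythroid lists, and intervals do not cover the missing replicates.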

Other observations

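Several lists that belong to no comparison above had ratios of members over mid-range barcodes close to 1. Genes of actin, thymosin and myosin light chains were at 1.02 in the control, 1.01 after 10 mGy, 1.02 after 100 mGy and 1.01 after 1 Gy. Immediate early genes were at 0.96, 0.96, 0.94 and 0.97. Cholesterol synthesis and uptake genes were at 1.00, 0.97, 0.96 and 0.97, although CYP51A1 of this list was called lower.

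Some members had a UMI of CDKN1A and mitotic core genes above the 75th percentile at once, at 7000 UMIs. They were 5.22% in the control, 5.35% after 10 mGy, 2.68% after 100 mGy and 5% after 1 Gy. Of mid-range barcodes 2.56%, 2.9%, 2.34% and 2.83% did, with the value of 100 mGy within the interval of its members (1.69 to 4.03). CDKN1A alone was detected in 18.7%, 16.9%, 12.6% and 15.7% of members against 12.9%, 16.7%, 12.1% and 14.2%. The mitotic core list alone was also exceeded by more members, as given above. The joint share therefore does not by itself describe a mixed state. Spearman's rho between both was -0.10, -0.06, -0.10 and -0.13 over members. Members that exceeded the 75th percentile of the histone list at that depth were 2.99% in the control and 1.19% at 1 Gy, but 18.4% at 10 mGy and 17.1% at 100 mGy, against 23.3% to 24.4% of mid-range barcodes. In the control and at 1 Gy the upper tail of the histone list was thus nearly empty of members.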
